A study of Homo sapiens with 12 samples.

Results

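The ATP-binding cassette (ABC) transporter family was taken from the RNA-sequencing count table as the genes whose symbol is ABC followed by a subfamily letter from A to G and a number. This gave 46 genes of 26481 in the table. A member was called detected when it had 10 or more counts in at least 2 of the 12 samples, and 28 of the 46 members (60.9%) met this, beside 14248 of 26481 genes (53.8%) in the whole table. By subfamily, 5 of 12 ABCA genes, 7 of 9 ABCB genes, 7 of 12 ABCC genes, 3 of 4 ABCD genes, the 1 ABCE gene, 3 of 3 ABCF genes and 2 of 5 ABCG genes were detected. The members not detected were ABCA5, ABCA6, ABCA8, ABCA9, ABCA10, ABCA12 and ABCA13, ABCB5 and ABCB11, ABCC2, ABCC8, ABCC11, ABCC12 and ABCC13, ABCD2, and ABCG4, ABCG5 and ABCG8. Among them, ABCA5, ABCC12 and ABCC13 were listed at 0 in every sample, and the highest count of any was 14, for ABCC2 in NT replicate 1. A count of 0 allowed up to 3 counts, which was a counts-per-million (CPM) value of 0.157 to 0.235 depending on the library. After the filter on low counts 27 members were tested, since ABCB4 was detected but did not pass it.

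The cells were HEL, an established human erythroleukemia line used as a model of acute myeloid leukemia, which carried DNA barcodes for tracing of clones. All 4 groups came from this line. The drug-treated groups were sampled after regrowth, while NT cells had not been depleted by drug, a difference that every comparison with NT includes. The NT group (n = 2) was cultured with DMSO, the solvent control, and no drug. Doxo cells (n = 3) had been exposed to 1.8 µM doxorubicin, Doxo+Cyta cells (n = 3) to 1.8 µM doxorubicin and 6 µM cytarabine, and Doxo+Cyta+DAC cells (n = 4) to both with 0.1 µM decitabine, each for about 72 h. Live cells that remained were then grown for about 30 days without drug until the starting number of cells was reached again, so the values describe relapsed populations and not the acute drug response. Each relapsed population grew from the few cells that survived, so that a change within cells and a change in which clones made up the culture cannot be told apart. One line was used, and the labels do not say whether samples of a group were separate cultures, so p-values measure the spread between these samples.

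ABC proteins couple ATP hydrolysis at paired nucleotide-binding domains to the movement of substrates across membranes. Members of the ABCB, ABCC and ABCG subfamilies pump drugs and drug conjugates out of cells, and doxorubicin is a known substrate of ABCB1 and ABCC1, while nucleotide analogs are known substrates of ABCC4 and ABCC5. Most ABCA proteins move lipids, several ABCB half-transporters sit in mitochondria and serve heme and iron-sulfur cluster metabolism, and ABCD half-transporters carry fatty acyl chains into peroxisomes. ABCE and ABCF proteins have the nucleotide-binding domains but no membrane span, and act in translation.

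The libraries held 12763582 to 19106235 gene-assigned fragments, of which 26418 to 40046 belonged to the 46 members. Pairwise comparison of raw counts within groups showed that Doxo replicate 4 differed from the other Doxo samples (chi-square per degree of freedom 27.3 and 29.7, against 3.10 between replicates 5 and 6). Doxo+Cyta replicate 20 stood apart in the same way (46.7 and 48.5, against 7.33 between replicates 19 and 22). The counts called in comparisons that use these libraries are given below with and without them. Of the 15 erythroid and megakaryocytic markers fixed for HEL, 14 were tested and the summed level was 7816 to 11710 CPM, with GATA1 present in every sample, while PF4 had at most 2 counts. The 10 markers of other cell types summed to 3.96 to 10.4 CPM, most of it NKG7, and MS4A1 was at 0. A level in these bulk samples cannot tell fewer expressing cells from less RNA per cell.

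Levels were compared between genes as CPM per kilobase of exon, averaged over the 12 samples. ABCC4, an exporter of cyclic nucleotides and nucleotide analogs, was the most abundant member at 106 CPM per kilobase. It was followed by ABCF1 at 61.0, ABCE1 at 37.1, ABCB6 at 34.0, ABCB10 at 25.4 and ABCB1 at 20.3. The order at the top was not the same in all groups. In NT, ABCC4 stood at 112 ± 9.0 CPM per kilobase (SD, n = 2) and ABCF1 at 43.6 ± 0.343, whereas in Doxo+Cyta+DAC ABCF1 stood at 94.1 ± 3.29 (SD, n = 4) and ABCC4 at 71.5 ± 11.9. In Doxo+Cyta+DAC the lowest ABCF1 sample (89.8 CPM per kilobase) lay above the highest ABCC4 sample (88.2), while in the other 3 groups every ABCC4 sample lay above every ABCF1 sample. At the other end, ABCA3, ABCG2, ABCC6, ABCB4 and ABCA4 were detected at mean levels of 0.0574 to 0.396 CPM per kilobase.

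**Figure D1:**
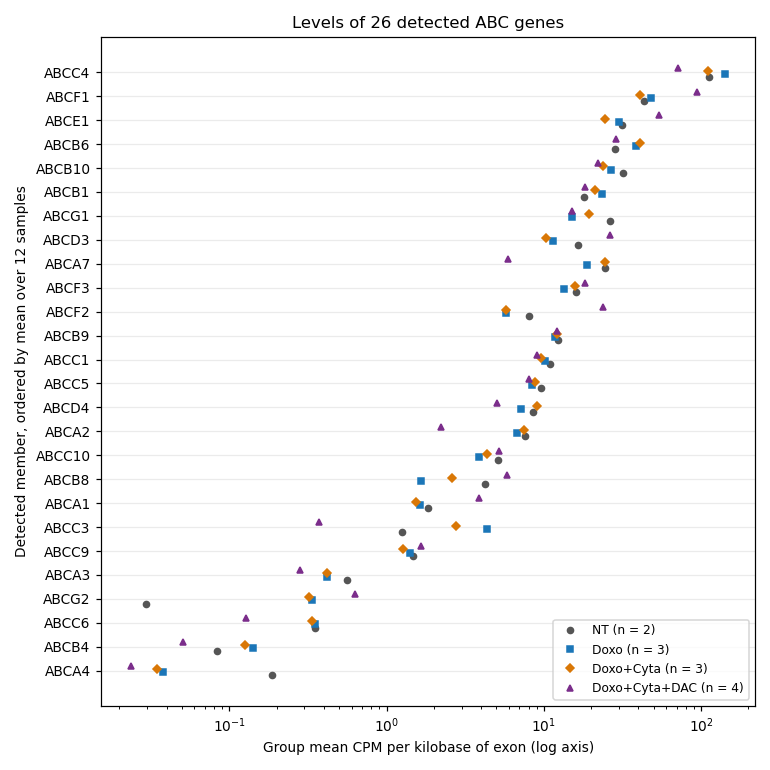
Group means of 26 detected ABC genes in CPM per kilobase of exon (log axis), ordered from bottom to top by the mean over 12 samples, with 1 symbol per group. ABCC4 is at the top and ABCA4 at the bottom, and the groups lie furthest apart for ABCG2, ABCC3, ABCA4, ABCA7 and ABCF2.

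Promoter windows were examined because decitabine lowers cytosine methylation at CpG sites. Methylation itself was not measured in these libraries, and nothing about it can be read from the sequences. RefSeq windows on GRCh38.p14, from 250 bases before to 50 bases after a transcript start, were matched by symbol for 35 of the 46 members. The start nearest to the 5′ end of the gene in the count table was used. The windows of 21 detected members held a median of 26 CpG sites (range 1 to 47) and those of 14 members not detected held a median of 3 (range 1 to 45). By the same rule all detected genes of the table had a median of 26 (10282 genes) and genes not detected a median of 7 (5745 genes), so the family lay close to the background. ABCA2, ABCA7, ABCF2 and ABCG2 are shown because their levels in Doxo+Cyta+DAC were furthest from NT among the called members with a window, and ABCF1 is shown beside its paralog ABCF2. For ABCG2 another annotated start, which holds the E-box letters searched below and lies 72413 bases downstream of the gene's 5′ end in the table, is also shown. The sequences read 5′ to 3′ in the direction of transcription, with CpG sites in capitals.
ABCA2, chr9:137028873-137029172, minus strand: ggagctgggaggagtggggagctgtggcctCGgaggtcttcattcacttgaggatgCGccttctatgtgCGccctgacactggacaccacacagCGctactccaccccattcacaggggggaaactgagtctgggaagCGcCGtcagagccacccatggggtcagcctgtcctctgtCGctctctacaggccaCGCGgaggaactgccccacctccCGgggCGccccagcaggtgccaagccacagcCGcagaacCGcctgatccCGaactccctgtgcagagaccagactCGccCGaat
ABCA7, chr19:1039857-1040156, plus strand: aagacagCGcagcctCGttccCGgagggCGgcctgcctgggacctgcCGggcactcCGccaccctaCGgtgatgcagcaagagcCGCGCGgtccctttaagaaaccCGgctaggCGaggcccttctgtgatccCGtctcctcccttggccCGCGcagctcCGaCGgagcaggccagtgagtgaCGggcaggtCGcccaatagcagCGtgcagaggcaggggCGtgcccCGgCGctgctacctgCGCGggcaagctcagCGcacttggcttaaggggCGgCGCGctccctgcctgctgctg
ABCF1, chr6:30571192-30571491, plus strand: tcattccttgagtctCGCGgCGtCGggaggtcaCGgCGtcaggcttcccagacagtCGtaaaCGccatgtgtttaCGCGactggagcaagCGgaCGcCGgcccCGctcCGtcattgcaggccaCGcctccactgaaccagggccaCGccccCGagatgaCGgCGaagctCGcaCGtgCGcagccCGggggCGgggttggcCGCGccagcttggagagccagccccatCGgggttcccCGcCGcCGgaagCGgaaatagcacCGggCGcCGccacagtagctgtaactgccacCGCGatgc
ABCF2, chr7:151227156-151227455, minus strand: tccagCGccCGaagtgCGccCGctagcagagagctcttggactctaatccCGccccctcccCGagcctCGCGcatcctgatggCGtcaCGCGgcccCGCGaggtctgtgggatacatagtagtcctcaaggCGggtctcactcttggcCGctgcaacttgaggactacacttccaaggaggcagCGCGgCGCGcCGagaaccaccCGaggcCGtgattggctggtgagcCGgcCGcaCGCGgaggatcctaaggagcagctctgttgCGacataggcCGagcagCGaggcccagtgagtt
ABCG2, chr4:88231577-88231876, minus strand: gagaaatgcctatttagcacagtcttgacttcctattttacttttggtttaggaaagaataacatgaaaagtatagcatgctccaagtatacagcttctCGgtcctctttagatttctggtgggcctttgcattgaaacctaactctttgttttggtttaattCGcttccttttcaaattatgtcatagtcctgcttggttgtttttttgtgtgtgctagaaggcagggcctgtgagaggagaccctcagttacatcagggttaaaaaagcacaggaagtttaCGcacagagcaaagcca
ABCG2, chr4:88158860-88159159, minus strand: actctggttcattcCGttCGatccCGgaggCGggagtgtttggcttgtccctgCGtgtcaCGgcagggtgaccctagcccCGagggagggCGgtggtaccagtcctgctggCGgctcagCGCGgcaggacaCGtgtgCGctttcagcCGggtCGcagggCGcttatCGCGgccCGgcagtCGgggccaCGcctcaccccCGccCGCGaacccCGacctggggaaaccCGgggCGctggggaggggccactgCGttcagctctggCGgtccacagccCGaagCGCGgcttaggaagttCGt

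The windows of ABCA7 and ABCF2, whose levels changed in opposite directions in Doxo+Cyta+DAC, each held 29 CpG sites. ABCF1 held 37 and the ABCA2 window 16, while another annotated start of ABCA2 held 66. The first ABCG2 window held 3 CpG sites and the downstream one 33, and the counts, which are summed per gene, do not tell which start was used. Among the 21 detected members with a window, 4 (19.0%) held the E-box letters CACGTG, namely ABCA1, ABCB6, ABCC10 and ABCF1, against 7.26% of all 35116 windows. The GC box GGGCGG was found in 14 of 21 (66.7%) against 45.0% of all windows, and CCAAT in 4 of 21 (19.0%) against 34.6%, on either strand. The E-box and the GC box each contain a CpG and therefore overlap with the capitals, and a match describes the letters only. The shares over all windows include genes not detected and further starts, so they are not a matched background. All windows held a median of 14 CpG sites, against 26 for nearest windows of detected genes. The differences in these letters are therefore not a result about the family.

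The 6 comparisons between groups were made with edgeR's quasi-likelihood test, in 1 fit over all 12 samples, and a gene was called at a Benjamini-Hochberg adjusted p under 0.05 over 14164 tested genes. The 3 comparisons with NT share the same 2 NT samples, and those with Doxo+Cyta+DAC share its 4 samples, so their results are not independent of each other. Between Doxo and NT, 6 of 27 tested members were called (22.2%, against 10.7% of all tested genes), 2 higher (6.06% of all genes) and 4 lower (4.63%) in Doxo. ABCC3 and ABCG2 rose, and ABCA4, ABCB8, ABCD3 and ABCG1 fell. ABCA4 and ABCG2 reached 10 counts in no sample of at least 1 group, and without them 4 of 25 members were called. At a change of at least 2-fold 4 were called, beside 3.87% of all genes, and the 4 included ABCA4 and ABCG2. The median log2 fold change of the members was -0.16, beside 0.01 over all tested genes. This count was sensitive to single libraries, with 1 member called without NT replicate 1, 0 without NT replicate 2, 3 without Doxo replicate 5 or 6, and 9 without Doxo replicate 4. Without Doxo replicate 4 and Doxo+Cyta replicate 20 together, an alternative chosen after seeing the data, it was 12, beside 37.4% of all genes in that fit. For fits with 1 sample left out, no share of all genes is given here or below. Moves in their counts are therefore not a result about the members.

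Between Doxo+Cyta and NT, 2 members were called (7.41%, against 1.46% of all tested genes). ABCG2 rose (0.911% of all genes) and ABCD3 fell (0.551%), which left 1 of 25 members without ABCA4 and ABCG2, and the median log2 fold change was -0.09, beside 0.01 over all genes. At least 2-fold, 1 member was called, beside 0.635% of all genes. This was ABCG2, which stayed under 10 counts in NT and passed the filters only through the relapsed groups. No member was called without either NT replicate or without Doxo+Cyta replicate 19, 1 was called without replicate 22, and 7 were called without Doxo replicate 4 and Doxo+Cyta replicate 20, beside 14.5% of all genes in that fit.

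Between Doxo+Cyta+DAC and NT, 17 members were called (63.0%, against 48.7% of all tested genes), 7 higher (25.9%, against 24.9%) and 10 lower (37.0%, against 23.7%). The members higher in Doxo+Cyta+DAC included ABCA1, ABCD3, ABCE1, ABCF1, ABCF2 and ABCG2. Those lower included ABCA2, ABCA4, ABCA7, ABCB10, ABCC3, ABCC4, ABCC6, ABCD4 and ABCG1. Without ABCA4 and ABCG2, 15 of 25 members were called. At a change of at least 2-fold, 9 members were called, beside 19.2% of all genes, and the 9 included ABCA4 and ABCG2. The median was -0.03 for the members and 0.02 for all genes, and 13 to 16 members were called when any 1 sample was left out.

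**Figure D2:**
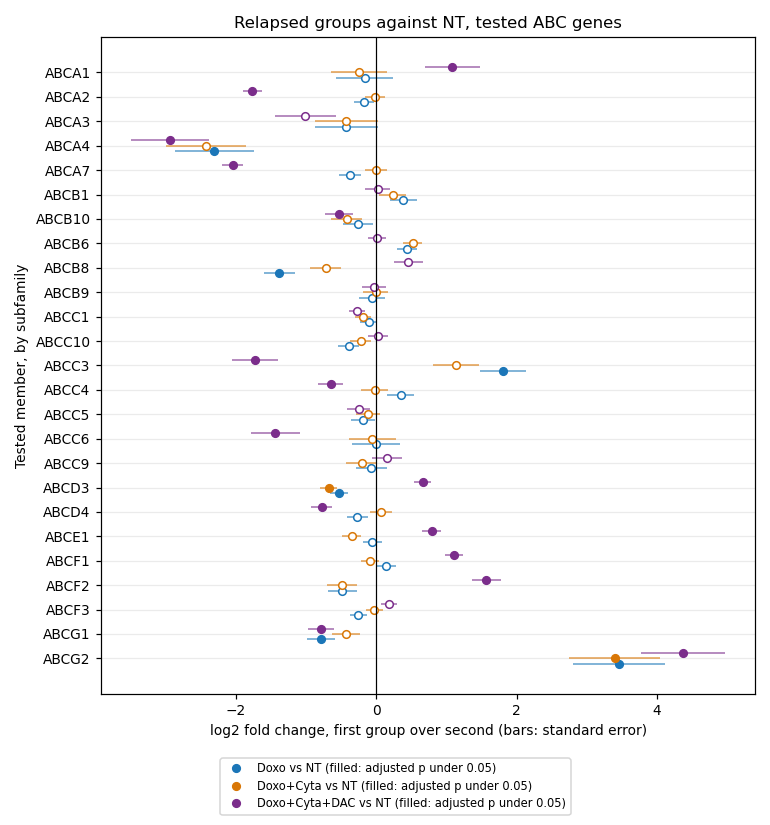
log2 fold changes against NT (x axis) of 25 tested ABC genes, ordered by subfamily, for Doxo, Doxo+Cyta and Doxo+Cyta+DAC. Bars are standard errors and filled points are called at an adjusted p under 0.05, which applied to 6, 2 and 15 of the genes drawn. All 3 comparisons use the same 2 NT samples.

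Between Doxo and Doxo+Cyta+DAC, 17 members were called (63.0%, against 59.5% of all tested genes), 8 higher in Doxo (30.4% of all genes) and 9 lower (29.1%). Between Doxo+Cyta and Doxo+Cyta+DAC the count was 16 (59.3%, against 60.3%), 8 higher (30.5%) and 8 lower (29.8%). At least 2-fold, 9 and 11 were called, beside 24.1% and 25.7% of all genes. Both full shares lay near the background, so the number of members called is not a result about the family. Without Doxo replicate 4 and Doxo+Cyta replicate 20 the counts were 21 and 19, beside 67.9% and 66.8% of all genes. The members called higher in both comparisons included ABCA2, ABCA7, ABCB6, ABCC3, ABCC4, ABCC6 and ABCD4, and those called lower in both were ABCA1, ABCB8, ABCD3, ABCE1, ABCF1, ABCF2 and ABCG2. ABCC10 and ABCF3 were called lower in Doxo alone, and the difference between the comparisons was not tested for these genes. Between Doxo and Doxo+Cyta no member was called by edgeR, against 3.40% of all tested genes (2.32% higher and 1.07% lower in Doxo, and 0.946% at least 2-fold), although 5 members had an unadjusted p under 0.05 and DESeq2 called 1, ABCB8.

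**Figure D3:**
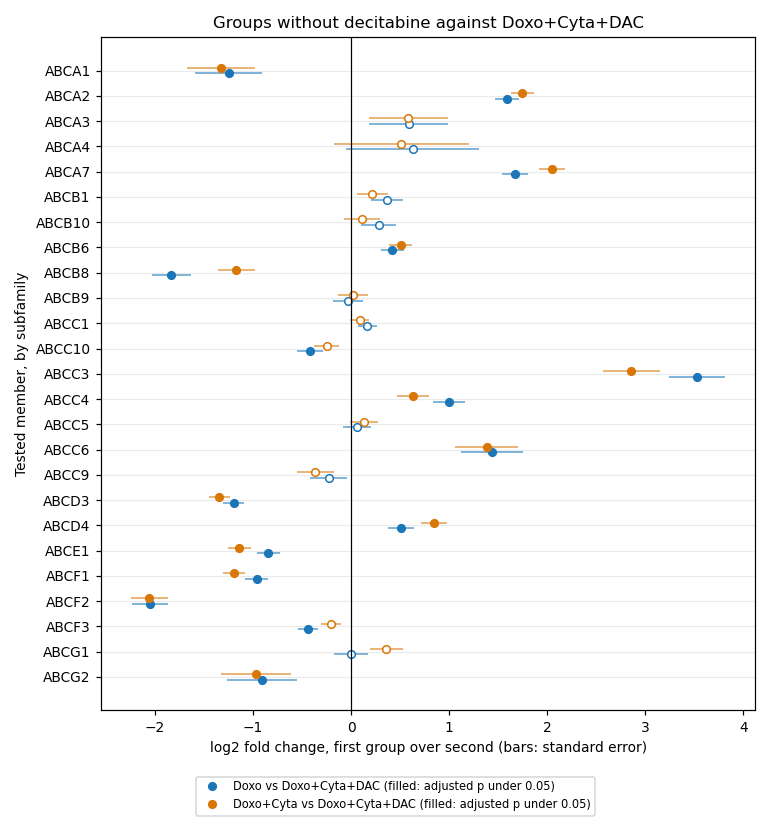
log2 fold changes of Doxo and of Doxo+Cyta over Doxo+Cyta+DAC (x axis) for 25 tested ABC genes, by subfamily. Bars are standard errors and filled points are called at an adjusted p under 0.05, which applied to 16 and 14 of the genes drawn. ABCC3 lies furthest to the right in both, and ABCF2 furthest to the left.

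Samples of the compared groups did not overlap for 17 of 27 members in Doxo and NT (49.1% of all tested genes), 12 in Doxo+Cyta and NT (40.6%), 21 in Doxo+Cyta+DAC and NT (67.2%), 18 in Doxo and Doxo+Cyta+DAC (60.0%), 16 in Doxo+Cyta and Doxo+Cyta+DAC (57.2%), and 5 in Doxo and Doxo+Cyta (21.0%). The members called in no comparison were ABCA3, ABCB1, ABCB9, ABCC1, ABCC5 and ABCC9.

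ABCC3, which exports glucuronide conjugates and bile salts, had the largest fold change of the family in Doxo and in Doxo+Cyta over Doxo+Cyta+DAC. The gene lies on chromosome 17, 50634857 to 50691702 (GRCh38). Its level in each sample was 5.55 and 7.62 in NT, 21.1, 25.7 and 22.2 after Doxo, 10.3, 17.9 and 15.2 after Doxo+Cyta and 2.08, 0.756, 2.73 and 2.30 after Doxo+Cyta+DAC CPM. Every Doxo and Doxo+Cyta sample lay above both NT samples, and every Doxo+Cyta+DAC sample lay below them. The change of Doxo over Doxo+Cyta+DAC was 11.5-fold (log2 fold change of 3.53 ± 0.29 SE, adjusted p = 5.75e-07), and that of Doxo+Cyta over Doxo+Cyta+DAC was 7.25-fold (log2 fold change of 2.86 ± 0.29 SE, adjusted p = 2.13e-06). Against NT, ABCC3 rose in Doxo (log2 fold change of 1.81 ± 0.33 SE, adjusted p = 0.00553) and fell in Doxo+Cyta+DAC (log2 fold change of -1.72 ± 0.33 SE, adjusted p = 7.46e-04). The Doxo+Cyta value did not pass the test (log2 fold change of 1.14 ± 0.32 SE, adjusted p = 0.0833), but was called by DESeq2 (adjusted p = 0.0143) and with no filter on low counts (adjusted p = 0.0480). The call of Doxo against NT was lost without NT replicate 1 (adjusted p = 0.111) or replicate 2 (adjusted p = 0.0550), while the calls of Doxo+Cyta+DAC against each of the other groups remained in every alternative fit.

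ABCG2, the breast cancer resistance protein and a marker of the side population of stem cells, was near the limit of detection in NT, with 2 and 3 counts. It had 33, 26 and 16 counts in Doxo, 30, 17 and 26 in Doxo+Cyta, and 51, 70, 41 and 25 in Doxo+Cyta+DAC. All 10 relapsed samples lay above both NT samples, and the 3 highest counts were in Doxo+Cyta+DAC. In CPM the levels were 0.103 and 0.179 in NT, 2.30, 1.51 and 1.01 after Doxo, 1.85, 1.13 and 1.59 after Doxo+Cyta and 3.12, 4.81, 2.15 and 1.98 after Doxo+Cyta+DAC. From summed counts, the ratio to NT was 11.5 in Doxo (exact 95% interval 4.71 to 36.4), 11.1 in Doxo+Cyta (4.56 to 35.3) and 21.7 in Doxo+Cyta+DAC (9.12 to 67.5), intervals that cover counting error only. ABCG2 passed the filters only through the relapsed groups, which favoured a rise over NT. With that limit, it was called higher than NT in Doxo (adjusted p = 0.00671), in Doxo+Cyta (adjusted p = 0.0317) and with decitabine (adjusted p = 7.16e-05). Without NT replicate 1 the adjusted p was 0.113 in Doxo and 0.243 in Doxo+Cyta, and without NT replicate 2 it was 0.0666 and 0.375. The Doxo+Cyta call was also lost without Doxo+Cyta replicate 19 (0.0678) or 22 (0.0598) or when the 2 groups were fitted alone (0.0781). In Doxo+Cyta+DAC the call remained in every alternative fit that tested the gene. The change of Doxo over Doxo+Cyta+DAC was smaller (log2 fold change of -0.91 ± 0.36 SE, adjusted p = 0.0394) with samples that overlapped, and was called in 7 of 13 alternatives. That of Doxo+Cyta over Doxo+Cyta+DAC (log2 fold change of -0.97 ± 0.36 SE, adjusted p = 0.0291) was called in 8 of 13. Leaving out Doxo+Cyta+DAC replicate 31, the highest sample, ended both calls (adjusted p = 0.133 and 0.0994).

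ABCC4 lies on chromosome 13, 95019829 to 95301446. Its level was 662 and 742 in NT, 815, 949 and 921 after Doxo, 773, 493 and 816 after Doxo+Cyta and 400.2, 389.7, 450.0 and 552 after Doxo+Cyta+DAC CPM. The Doxo samples all lay above NT, and the Doxo+Cyta group was spread by replicate 20, its lowest sample. ABCC4 fell in Doxo+Cyta+DAC against NT (log2 fold change of -0.65 ± 0.18 SE, adjusted p = 0.00846). Over Doxo+Cyta+DAC it was 2.00-fold higher in Doxo (log2 fold change of 1.00 ± 0.16 SE, adjusted p = 1.18e-04) and also higher in Doxo+Cyta (log2 fold change of 0.63 ± 0.16 SE, adjusted p = 0.00362), where the samples overlapped. Its changes in Doxo and Doxo+Cyta against NT were 0.35 (adjusted p = 0.252) and -0.02 (adjusted p = 0.976) on the log2 scale. The Doxo+Cyta+DAC call against NT was lost without NT replicate 2 (adjusted p = 0.0828), and Doxo was called higher than NT without Doxo replicate 4 and Doxo+Cyta replicate 20 (adjusted p = 0.0407).

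ABCB1, the P-glycoprotein that exports doxorubicin, had 80.8 and 89.4 in NT, 96.8, 119 and 118 after Doxo, 123, 72.0 and 106 after Doxo+Cyta and 75.3, 95.2, 79.0 and 96.2 after Doxo+Cyta+DAC CPM. The 3 Doxo samples lay above both NT samples and above all 4 Doxo+Cyta+DAC samples, and Doxo+Cyta replicate 20 was the lowest of all 12. No comparison was called. The largest changes were 0.39 (adjusted p = 0.207) for Doxo against NT and 0.36 (adjusted p = 0.063) for Doxo against Doxo+Cyta+DAC on the log2 scale, and Doxo+Cyta+DAC against NT was 0.02 (adjusted p = 0.933). This depended on the setting. The value of Doxo over Doxo+Cyta+DAC was called under upper-quartile scaling (adjusted p = 0.0369), with 10 counts required in every sample (adjusted p = 0.0455) and when the 2 groups were fitted alone (adjusted p = 0.0213). Without Doxo replicate 4 the value of Doxo over Doxo+Cyta+DAC was 0.45 (adjusted p = 0.0386), and without Doxo+Cyta replicate 20 that of Doxo+Cyta over Doxo+Cyta+DAC was 0.41 (adjusted p = 0.0121). With both left out, ABCB1 was also called higher than NT in Doxo (log2 0.45, adjusted p = 0.0149) and Doxo+Cyta (0.41, adjusted p = 0.0468).

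The other drug exporters of the ABCC subfamily differed less between groups. ABCC1, an exporter of glutathione conjugates and anthracyclines, had 66.4 and 76.8 in NT, 68.5, 71.3 and 59.7 after Doxo, 64.7, 61.3 and 63.0 after Doxo+Cyta and 59.3, 56.6, 62.4 and 58.9 after Doxo+Cyta+DAC CPM and was called in no comparison. Its lowest value was -0.27 (adjusted p = 0.055) on the log2 scale in Doxo+Cyta+DAC against NT, which passed the threshold under DESeq2 (adjusted p = 0.0314) and under RLE (adjusted p = 0.0462) or upper-quartile scaling (adjusted p = 0.0168), with 10 counts required in every sample (adjusted p = 0.0288) and when the 2 groups were fitted alone (adjusted p = 0.0150). ABCC5, an exporter of cyclic nucleotides and nucleotide analogs, had 69.7 and 65.2 in NT, 63.5, 61.4 and 52.6 after Doxo, 77.3, 49.8 and 59.4 after Doxo+Cyta and 63.9, 51.5, 51.5 and 60.2 after Doxo+Cyta+DAC CPM, with log2 fold changes from -0.25 to 0.13 over the 6 comparisons and no call. ABCC10 had 28.1 and 27.4 in NT, 25.5, 19.6 and 18.6 after Doxo, 25.9, 22.1 and 23.5 after Doxo+Cyta and 30.6, 26.1, 28.7 and 28.1 after Doxo+Cyta+DAC CPM and was lower in Doxo than in Doxo+Cyta+DAC (log2 fold change of -0.42 ± 0.13 SE, adjusted p = 0.0121). That call was lost without Doxo replicate 5 (adjusted p = 0.0614) or 6 (0.0719), and ABCC10 was called lower than NT in Doxo without Doxo replicate 4 and Doxo+Cyta replicate 20 (adjusted p = 0.00238). Of its exon bases 74 lie in DLK2 on the opposite strand. ABCC2, an exporter of conjugates in liver, was not detected, with 14 and 4 counts in NT, 7, 4 and 4 in Doxo, 5, 8 and 8 in Doxo+Cyta, and 3, 8, 3 and 4 in Doxo+Cyta+DAC.

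Transporters and vault genes outside the family that have been tied to drug efflux were also counted. Of 12 genes 7 were tested. None of the 7 was called in Doxo or Doxo+Cyta against NT by edgeR or DESeq2, beside 10.7% and 1.46% of all genes by edgeR. In each, 1 of the 7 had an unadjusted p under 0.05. In Doxo+Cyta+DAC 3 were lower than NT, beside 23.7% of all genes, with SLC22A5, a carnitine transporter, at -1.52 (adjusted p = 7.43e-04) on the log2 scale. In Doxo, 6 of the 7 were higher than in Doxo+Cyta+DAC, beside 30.4% of all genes, and 5 were higher in Doxo+Cyta, beside 30.5%. The glutathione and NRF2 genes that supply conjugates to the ABCC pumps were counted as well. Of 18 tested, 4 were higher than NT in Doxo and 8 in Doxo+Cyta+DAC, beside 6.06% and 24.9% of all genes, with GSTP1, a glutathione transferase, furthest from NT in both (log2 1.5 with adjusted p = 0.0206, and log2 1.61 with adjusted p = 0.00205). In Doxo+Cyta 1 was higher and 1 lower than NT, beside 0.911% and 0.551% of all genes. Against Doxo+Cyta+DAC, 3 were higher and 8 lower in Doxo, and 4 were higher and 8 lower in Doxo+Cyta, near the 59.5% and 60.3% of all genes called, with SLC7A11, the cystine importer, at -1.85 (adjusted p = 4.67e-06).

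ABCC6, which mediates ATP release in liver, had 2.16 and 1.73 in NT, 2.23, 1.75 and 1.89 after Doxo, 1.17, 2.33 and 2.14 after Doxo+Cyta and 0.551, 0.481, 0.944 and 0.871 after Doxo+Cyta+DAC CPM from 7 to 42 counts, and every Doxo+Cyta+DAC sample was below every other sample. It was lower in Doxo+Cyta+DAC than in NT (log2 fold change of -1.44 ± 0.35 SE, adjusted p = 0.00377), and higher in Doxo (log2 fold change of 1.44 ± 0.32 SE, adjusted p = 0.0015) and Doxo+Cyta (log2 fold change of 1.38 ± 0.32 SE, adjusted p = 0.00195) than with decitabine. Without NT replicate 1 the change against NT was not called (adjusted p = 0.0530). ABCC6 has near-identical partial copies in the genome and ABCC1, ABCC6 and ABCF1 also have copies on alternate contigs, so their counts are less certain. ABCC9, the regulatory subunit of ATP-sensitive potassium channels, was called in no comparison, with 130 to 264 counts and log2 fold changes from -0.37 to 0.16. Its channel partner gene KCNJ11 was higher in Doxo (log2 0.97, adjusted p = 0.00876) and Doxo+Cyta (log2 1.44, adjusted p = 4.49e-04) than with decitabine, and KCNJ8 was not called in either.

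In the ABCA subfamily of lipid transporters, 4 of 5 tested genes were called in Doxo+Cyta+DAC against NT, 1 higher and 3 lower, against 1 lower in Doxo and 0 in Doxo+Cyta (edgeR, with 1 at an unadjusted p under 0.05 and 0 by DESeq2). Of all genes 48.7%, 10.7% and 1.46% were called in the same comparisons. The call in Doxo and 1 of the 3 lower in Doxo+Cyta+DAC were ABCA4, which passed the filters only through NT. ABCA2, an endolysosomal lipid transporter on chromosome 9, 137007234 to 137028922, had 61.4 and 64.8 in NT, 63.2, 54.0 and 50.9 after Doxo, 69.5, 62.0 and 55.7 after Doxo+Cyta and 17.0, 20.3, 17.4 and 19.9 after Doxo+Cyta+DAC CPM. The 4 Doxo+Cyta+DAC samples lay between 17.0 and 20.3 CPM, and the other 8 between 50.9 and 69.5. ABCA2 fell against NT (log2 fold change of -1.76 ± 0.13 SE, adjusted p = 7.63e-07) and was higher in Doxo (log2 fold change of 1.59 ± 0.12 SE, adjusted p = 3.42e-07) and Doxo+Cyta (log2 fold change of 1.74 ± 0.12 SE, adjusted p = 1.10e-07) than with decitabine. ABCA7, a phospholipid transporter on chromosome 19, 1040103 to 1065571, had 168 and 166 in NT, 114, 141 and 132 after Doxo, 189.5, 162 and 151 after Doxo+Cyta and 40.3, 43.1, 31.7 and 47.2 after Doxo+Cyta+DAC CPM, with the same separation of the Doxo+Cyta+DAC samples. Its changes were -2.04 (adjusted p = 5.65e-07) against NT, 1.67 (adjusted p = 4.96e-07) for Doxo over Doxo+Cyta+DAC and 2.05 (adjusted p = 8.31e-08) for Doxo+Cyta over Doxo+Cyta+DAC on the log2 scale. In Doxo and Doxo+Cyta neither gene was called against NT, with ABCA2 at -0.17 (adjusted p = 0.442) and -0.02 (adjusted p = 0.967) and ABCA7 at -0.37 (adjusted p = 0.133) and 0.01 (adjusted p = 0.99).

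ABCA1, the exporter of cholesterol and phospholipid to apolipoprotein A-I, moved in the opposite direction. Its level was 17.4 and 21.0 in NT, 13.9, 19.0 and 18.5 after Doxo, 22.6, 8.60 and 17.5 after Doxo+Cyta and 19.1, 61.5, 38.8 and 43.8 after Doxo+Cyta+DAC CPM. Of the Doxo+Cyta+DAC samples, 3 lay above all other samples, while replicate 30 lay within the range of NT and Doxo+Cyta. ABCA1 was higher in Doxo+Cyta+DAC than in NT (log2 fold change of 1.09 ± 0.39 SE, adjusted p = 0.0337), and lower in Doxo (log2 fold change of -1.25 ± 0.34 SE, adjusted p = 0.00634) and Doxo+Cyta (log2 fold change of -1.33 ± 0.34 SE, adjusted p = 0.00426) than with decitabine. The change against NT was not called without NT replicate 1 (adjusted p = 0.194) or 2 (0.103), or without Doxo+Cyta+DAC replicate 31 (0.0833) or 33 (0.0592). ABCA3, a transporter of surfactant lipid, had 3.14 and 4.29 in NT, 2.86, 3.08 and 2.33 after Doxo, 1.85, 4.20 and 2.26 after Doxo+Cyta and 3.06, 1.03, 0.892 and 2.45 after Doxo+Cyta+DAC CPM and was called in no comparison, with the lowest value in Doxo+Cyta+DAC against NT (log2 -1.01, adjusted p = 0.0674). Without Doxo+Cyta+DAC replicate 30 that value was -1.38 and was called (adjusted p = 0.0190), as it was with no filter on low counts (adjusted p = 0.0363).

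ABCA4, the retinoid transporter of photoreceptors, had 35 and 16 counts in NT. It had 5, 4 and 4 counts in Doxo, 5, 5 and 2 in Doxo+Cyta, and 0, 4, 5 and 2 in Doxo+Cyta+DAC, so all 10 relapsed samples lay below NT. From summed counts the level in NT was 5.13 times that in Doxo (exact 95% interval 2.75 to 10.3), 5.58 times that in Doxo+Cyta (2.93 to 11.5) and 8.00 times that in Doxo+Cyta+DAC (4.12 to 17.0). ABCA4 reached 10 counts in the 2 NT samples alone and so passed the filters only through the group in which it was high, which favoured a fall from NT. With that limit, it was called lower in Doxo (adjusted p = 0.0214) and Doxo+Cyta+DAC (adjusted p = 7.54e-04), and the Doxo+Cyta value missed the threshold (adjusted p = 0.0519). The call in Doxo was lost when either NT sample (adjusted p = 0.254 and 0.0723) or Doxo replicate 5 or 6 (0.0873 and 0.0796) was left out. The Doxo+Cyta value was called with no filter on low counts (adjusted p = 0.0326) and without Doxo replicate 4 and Doxo+Cyta replicate 20 (adjusted p = 0.0206).

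ABCG1, which passes cholesterol to lipoprotein particles, had 42.2 to 97.4 CPM and was lower than NT in Doxo (log2 fold change of -0.79 ± 0.20 SE, adjusted p = 0.0241) and in Doxo+Cyta+DAC (log2 fold change of -0.79 ± 0.19 SE, adjusted p = 0.00336). The Doxo+Cyta value was -0.43 (adjusted p = 0.243) on the log2 scale. The call of ABCG1 in Doxo against NT was lost without either NT replicate, and also without Doxo replicate 5 or 6. ABCA1 and ABCG1, both known targets of the liver X receptors, thus had opposite signs in Doxo+Cyta+DAC against NT. Among 17 tested sterol efflux and LXR genes, 2 were higher and 1 lower in Doxo, 1 was higher in Doxo+Cyta, and 4 were higher and 6 lower in Doxo+Cyta+DAC, each against NT, where 10.7%, 1.46% and 48.7% of all genes were called. RXRA, the partner receptor of LXR, was at 1.08 (adjusted p = 0.0103) in Doxo and 1.33 (adjusted p = 0.0228) in Doxo+Cyta, and APOC1 at -1.61 (adjusted p = 3.15e-04) in Doxo+Cyta+DAC. Against Doxo+Cyta+DAC, 7 were higher and 4 lower in Doxo, and 8 were higher and 3 lower in Doxo+Cyta, near the 59.5% and 60.3% of all genes called, led by SMPDL3A, a phosphodiesterase induced by sterols, at 1.49 (adjusted p = 3.86e-04) and 1.53 (adjusted p = 3.04e-04).

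Of the ABCB genes 6 were tested. ABCB8, part of a mitochondrial potassium channel and linked to iron export, had 19.4 and 20.9 in NT, 10.7, 5.99 and 6.62 after Doxo, 11.8, 14.9 and 10.1 after Doxo+Cyta and 28.3, 29.4, 27.6 and 25.1 after Doxo+Cyta+DAC CPM. All Doxo and Doxo+Cyta samples lay below NT and all Doxo+Cyta+DAC samples above it. ABCB8 fell in Doxo against NT (log2 fold change of -1.38 ± 0.22 SE, adjusted p = 0.00328), was not called in Doxo+Cyta (log2 -0.72, adjusted p = 0.103) or Doxo+Cyta+DAC (log2 0.46, adjusted p = 0.0843), and was lower than Doxo+Cyta+DAC in Doxo (log2 fold change of -1.83 ± 0.20 SE, adjusted p = 4.40e-06) and Doxo+Cyta (log2 fold change of -1.17 ± 0.19 SE, adjusted p = 1.14e-04). Against NT, the Doxo+Cyta value was called by DESeq2 (adjusted p = 0.0316) and without Doxo replicate 4 and Doxo+Cyta replicate 20 (adjusted p = 0.00155), and the Doxo+Cyta+DAC value was called when the 2 groups were fitted alone (adjusted p = 0.00973). Without NT replicate 2 the Doxo change against NT had an adjusted p of 0.0518. Without Doxo replicate 4 ABCB8 was called lower in Doxo than in Doxo+Cyta (log2 -0.97, adjusted p = 0.0110).

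ABCB6, a half-transporter that binds porphyrins, had 87.0 and 84.2 in NT, 126, 109 and 112 after Doxo, 122, 115 and 131 after Doxo+Cyta and 88.8, 68.5, 94.3 and 94.5 after Doxo+Cyta+DAC CPM. The Doxo and Doxo+Cyta samples lay above all NT and Doxo+Cyta+DAC samples. ABCB6 was higher in Doxo (log2 fold change of 0.42 ± 0.12 SE, adjusted p = 0.00681) and Doxo+Cyta (log2 fold change of 0.50 ± 0.12 SE, adjusted p = 0.00195) than with decitabine, and these calls remained in every alternative fit. Against NT the changes were 0.43 (adjusted p = 0.0631) after Doxo, 0.52 (adjusted p = 0.0771) after Doxo+Cyta and 0.01 (adjusted p = 0.936) after Doxo+Cyta+DAC on the log2 scale. DESeq2 called the first (adjusted p = 0.0386) and the second (adjusted p = 0.0210). The first was also called when the 2 groups were fitted alone (adjusted p = 0.0416), and the second without Doxo replicate 4 and Doxo+Cyta replicate 20 (adjusted p = 0.0154). ABCB10, which acts in the mitochondria of erythroid cells, had 58.5 to 128 CPM and was lower than NT in Doxo+Cyta+DAC (log2 fold change of -0.53 ± 0.20 SE, adjusted p = 0.0421), the one comparison in which it was called. That call lay near the threshold, and the ABCB10 values with single samples left out are not reported here. ABCB9, a lysosomal peptide transporter, had log2 fold changes from -0.06 to 0.02 and no call, the narrowest range of the family. ABCB4, a phosphatidylcholine transporter, had 1 to 11 counts and was not tested.

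Of 14 heme and iron-sulfur genes that act with these half-transporters, 1 was higher and 3 lower than NT in Doxo, beside 10.7% of all genes called, with UROD at -1.19 (adjusted p = 0.0038) on the log2 scale. None was called in Doxo+Cyta by edgeR or DESeq2, beside 1.46% of all genes by edgeR. At an unadjusted p under 0.05 there were 5, and ALAS2 had the largest value (log2 0.77, adjusted p = 0.218). In Doxo+Cyta+DAC 4 were higher and 4 lower than NT, beside 48.7% of all genes called, with CPOX at -1.54 (adjusted p = 3.77e-05). Against Doxo+Cyta+DAC, 4 were higher and 6 lower in Doxo and 5 higher and 3 lower in Doxo+Cyta, beside 59.5% and 60.3% of all genes called, and SLC25A37, the mitochondrial iron importer, was the furthest apart (log2 1.84 with adjusted p = 4.30e-07, and log2 1.86 with adjusted p = 2.58e-07). Of 14 tested erythroid and megakaryocytic markers 6 were higher and 2 lower in Doxo and 8 higher and 3 lower in Doxo+Cyta than in Doxo+Cyta+DAC, beside 59.5% and 60.3% of all genes called, with GP9 at 2.2 (adjusted p = 1.39e-06) and 2.45 (adjusted p = 4.20e-07) on the log2 scale. Their part in the ABCB results was not tested.

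The half-transporters of the antigen peptide transporter, TAP1 and TAP2, belong to the ABCB subfamily but not to the name pattern, and went in opposite directions. TAP1 had mean levels of 124 CPM in NT, 181 after Doxo, 181 after Doxo+Cyta and 79.4 after Doxo+Cyta+DAC, while TAP2 had 100.3, 88.3, 88.1 and 182. On the log2 scale TAP1 was at 1.19 (adjusted p = 7.31e-06) and TAP2 at -1.05 (adjusted p = 2.58e-06) in Doxo over Doxo+Cyta+DAC, and at 1.19 (adjusted p = 6.14e-06) and -1.05 (adjusted p = 1.90e-06) in Doxo+Cyta. Against NT, TAP1 was at 0.55 (adjusted p = 0.047) in Doxo and -0.64 (adjusted p = 0.00361) in Doxo+Cyta+DAC, and TAP2 at 0.86 (adjusted p = 7.68e-05) in Doxo+Cyta+DAC. Both genes have copies on 7 alternate contigs, which makes their counts less certain. CFTR, the ABCC chloride channel, did not pass the filter on low counts.

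Of the ABCD genes 3 were tested. ABCD3, which carries branched-chain and dicarboxylic acyl groups into peroxisomes, had 57.5 and 68.0 in NT, 42.9, 44.0 and 43.5 after Doxo, 38.0, 36.5 and 43.3 after Doxo+Cyta and 89.4, 99.8, 108 and 102 after Doxo+Cyta+DAC CPM. All Doxo and Doxo+Cyta samples lay below NT and all Doxo+Cyta+DAC samples above it, the same order as for ABCB8. It fell in Doxo (log2 fold change of -0.53 ± 0.12 SE, adjusted p = 0.0177) and Doxo+Cyta (log2 fold change of -0.68 ± 0.12 SE, adjusted p = 0.0263) and rose in Doxo+Cyta+DAC (log2 fold change of 0.67 ± 0.12 SE, adjusted p = 5.47e-04) against NT. The changes against Doxo+Cyta+DAC were -1.20 (adjusted p = 1.19e-06) for Doxo and -1.34 (adjusted p = 3.47e-07) for Doxo+Cyta on the log2 scale. Without NT replicate 1 or 2 the calls against NT were lost in Doxo (adjusted p = 0.0810 and 0.222) and Doxo+Cyta (0.216 and 0.435). They were also lost in Doxo without replicate 5 (0.0520) or 6 (0.0533) and in Doxo+Cyta without replicate 19 (0.0635) or when the 2 groups were fitted alone (0.0987), while the call in Doxo+Cyta+DAC remained in every alternative fit. ABCD4, which acts in the exit of vitamin B12 from lysosomes, moved the other way, lower in Doxo+Cyta+DAC than in NT (log2 fold change of -0.78 ± 0.15 SE, adjusted p = 7.18e-04).

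Of 15 tested peroxisomal and vitamin B12 partner genes, 0 were called in Doxo or Doxo+Cyta against NT by edgeR. These comparisons called 10.7% and 1.46% of all genes, and 2 and 3 partner genes had an unadjusted p under 0.05. DESeq2 called MMACHC, an enzyme of vitamin B12 processing, in both, and edgeR gave it -0.82 (adjusted p = 0.0647) and -0.96 (adjusted p = 0.0816) on the log2 scale. In Doxo+Cyta+DAC 5 were lower and 0 higher than NT, beside 23.7% and 24.9% of all genes. LMBRD1, the lysosomal partner of ABCD4 in vitamin B12 export, was the lowest (log2 -1.03, adjusted p = 0.00133). Doxo had 5 of these genes higher and 4 lower than Doxo+Cyta+DAC, and Doxo+Cyta had 6 higher and 1 lower, beside 59.5% and 60.3% of all genes called.

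Of the 4 members without a membrane span, ABCE1, ABCF1 and ABCF2 rose in Doxo+Cyta+DAC against NT. ABCE1, which splits ribosomes after termination, had 127 and 136 in NT, 123, 125 and 132 after Doxo, 115, 80.9 and 114 after Doxo+Cyta and 211, 244, 228 and 228 after Doxo+Cyta+DAC CPM. It rose in Doxo+Cyta+DAC against NT (log2 fold change of 0.79 ± 0.14 SE, adjusted p = 3.67e-04) and was lower in Doxo (log2 fold change of -0.84 ± 0.12 SE, adjusted p = 3.96e-05) and Doxo+Cyta (log2 fold change of -1.14 ± 0.12 SE, adjusted p = 2.87e-06) than with decitabine. Of its exon bases 284 lie in ANAPC10 on the opposite strand, and the counting did not use strand. ABCF1, which binds the initiation factor eIF2, had 150.2 and 152 in NT, 195, 155 and 152 after Doxo, 129, 166 and 132 after Doxo+Cyta and 324, 336, 333 and 311 after Doxo+Cyta+DAC CPM and lies on chromosome 6, 30571393 to 30591532. Its change was 1.11 (adjusted p = 2.32e-05) in Doxo+Cyta+DAC against NT, -0.96 (adjusted p = 9.55e-06) in Doxo and -1.20 (adjusted p = 1.33e-06) in Doxo+Cyta against Doxo+Cyta+DAC on the log2 scale. ABCF2 on chromosome 7, 151207837 to 151227374 had 39.3 and 40.2 in NT, 39.7, 23.5 and 22.5 after Doxo, 26.0, 34.8 and 24.4 after Doxo+Cyta and 116, 120.0, 122 and 115 after Doxo+Cyta+DAC CPM, and was 2.97-fold higher in Doxo+Cyta+DAC than in NT (log2 fold change of 1.57 ± 0.21 SE, adjusted p = 6.00e-05). It was lower in Doxo (log2 fold change of -2.05 ± 0.19 SE, adjusted p = 1.29e-06) and Doxo+Cyta (log2 fold change of -2.06 ± 0.19 SE, adjusted p = 8.10e-07) than with decitabine. For all 3 genes the 4 Doxo+Cyta+DAC samples lay above the other 8. ABCF3 did not pass against NT (log2 0.18, adjusted p = 0.207) and was called lower in Doxo than in Doxo+Cyta+DAC alone (log2 fold change of -0.44 ± 0.10 SE, adjusted p = 0.00229).

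In Doxo and Doxo+Cyta against NT none of the 4 genes was called by edgeR or DESeq2, with 1 and 2 at an unadjusted p under 0.05. By edgeR 10.7% and 1.46% of all genes were called there, so the absence of calls is not a result about these genes. Without Doxo replicate 4, ABCF2 was called lower in Doxo than in NT (log2 -0.82, adjusted p = 0.00377). With Doxo+Cyta replicate 20 left out as well, it was also lower in Doxo+Cyta (log2 -0.68, adjusted p = 0.000752). Of 12 tested genes of ribosome recycling and eIF2 function, 1 was higher and 1 lower than NT in Doxo and 7 were higher and 1 lower in Doxo+Cyta+DAC, beside 10.7% and 48.7% of all genes called. The furthest were ETF1, the termination factor eRF1, at 1.21 (adjusted p = 2.21e-06) in Doxo+Cyta+DAC and PELO, the ribosome rescue factor, at 0.82 (adjusted p = 0.00526) in Doxo on the log2 scale. None was called in Doxo+Cyta by edgeR, beside 1.46% of all genes, with 4 at an unadjusted p under 0.05. DESeq2 called GCN1, for which edgeR gave -0.40 (adjusted p = 0.092). Doxo had 2 higher and 7 lower, and Doxo+Cyta 1 higher and 7 lower, than Doxo+Cyta+DAC, where 29.1% and 29.8% of all genes were lower.

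The counts of the gene lists were also taken without Doxo replicate 4 and Doxo+Cyta replicate 20. Against NT, 37.4% of all genes were then called in Doxo and 14.5% in Doxo+Cyta. The drug efflux list had 2 and 1 of 7 genes called, the sterol list 9 and 5 of 17, and the glutathione list 9 and 3 of 18. The heme list had 9 and 3 of 14, the peroxisomal list 5 and 1 of 15, the ribosome list 4 and 2 of 12 and the erythroid and megakaryocytic markers 1 and 1 of 14. Against Doxo+Cyta+DAC, 67.9% of all genes were called in Doxo and 66.8% in Doxo+Cyta. The drug efflux list then had 6 and 6 genes called, the sterol list 11 and 15, the glutathione list 14 and 15 and the heme list 11 and 9. The peroxisomal list had 12 and 10, the ribosome list 10 and 8 and the erythroid and megakaryocytic markers 10 and 11.

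The summed level of the 46 members was 2059 and 2192 CPM in NT, 2198 to 2286 in Doxo, 1762 to 2189 in Doxo+Cyta and 1877 to 2135 in Doxo+Cyta+DAC, so the groups overlapped apart from Doxo, whose lowest sample lay above all the others. The makeup of this sum differed more. ABCC4 accounted for 32.2% and 33.8% of family counts in NT, 37.1% to 41.5% in Doxo, 28.0% to 38.2% in Doxo+Cyta and 19.7% to 25.9% in Doxo+Cyta+DAC. The 3 ABCF genes summed to 231 and 233 CPM in NT, 209 to 272 in Doxo, 194 to 242 in Doxo+Cyta and 472 to 502 in Doxo+Cyta+DAC. ABCA genes summed to 252 and 257 CPM in NT, 194 to 217 in Doxo, 228 to 284 in Doxo+Cyta and 80.0 to 127 in Doxo+Cyta+DAC. In Doxo+Cyta+DAC the ABCF sum was thus above and the ABCA sum below every other sample.

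**Figure D4:**
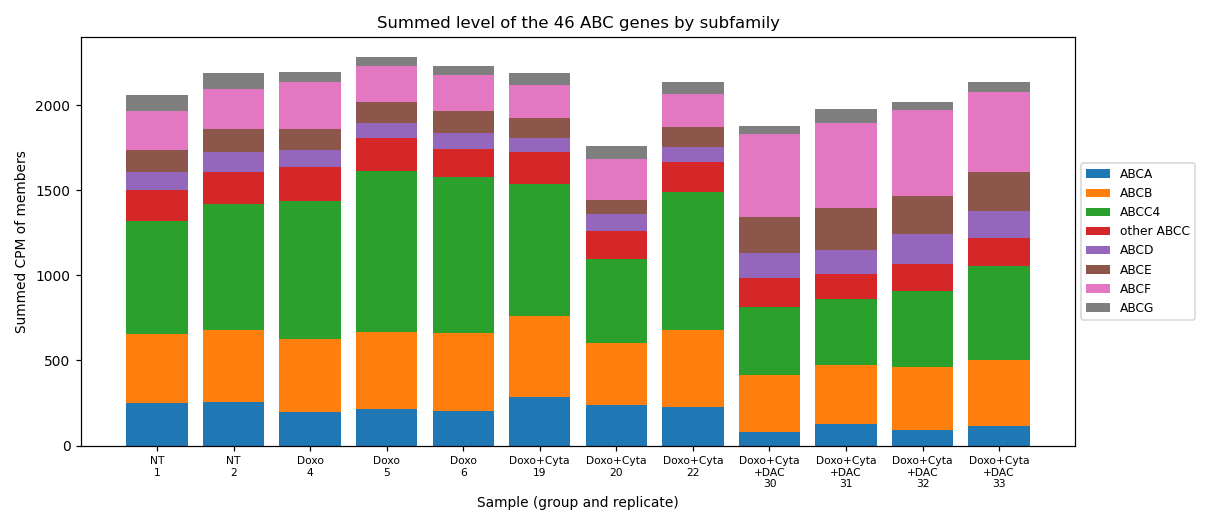
Summed CPM of the 46 ABC genes in each of the 12 samples (bars from 0), split by subfamily with ABCC4 shown on its own. The bars reach 1762 to 2286 CPM, and the 4 Doxo+Cyta+DAC samples hold less ABCA and more ABCE and ABCF than the others.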

How the data were processed

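RNA of HEL cells was sequenced as paired 100-base reads with the TruSeq RNA kit, which does not mark strand. The authors mapped the reads to GRCh38 with Bowtie2 2.2.8 and deposited raw counts of fragments per gene from featureCounts 1.6.0, unstranded and by default without fragments that fall on several genes. How fragments with several possible positions were counted is not known. Bowtie2 does not split reads across splice junctions, and junction fragments may thus be under-counted. All 12 sample columns were used, and 4 of 26485 rows with a missing count were left out. The counts, of 12763582 to 19106235 per sample, were scaled with TMM factors. Genes passing filterByExpr (14164) were tested with edgeR 4.0.16 (R 4.3.3) in a quasi-likelihood fit with group as the only term, two-sided, with Benjamini-Hochberg adjustment over all tested genes. Levels are CPM after TMM scaling, divided by kilobases of exon on the primary chromosome when genes are compared. Intervals and the 3-count floor cover counting error only.

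Members, gene lists and tests were chosen with earlier results of these data known. Values in every sample are given for members with an adjusted p under 0.05 and at least a 2-fold change in any comparison, for the drug exporters ABCB1, ABCC1 to ABCC5, ABCC10 and ABCG2, and for ABCA2, ABCA3 and ABCB6. The study discussed ABCA2, ABCB6, ABCC3 and ABCG2 from these same samples, so they are not independent evidence. Other members are given by ranges, and partner genes where they had the largest change of their list. The fit was tested on simulated counts. DESeq2 1.42.0, other scalings and filters, the fold thresholds of the study and leaving out each sample were tried as alternatives. Promoter windows are from RefSeq, and were searched with Python 3.11.15. Some family members and partner genes are counted but not reported by name here.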

Additional observations from a re-analysis of the deposited data

How the results depend on the processing

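No paired analysis was possible because no replicate number is shared between groups. The number of detected members was 33 at 5 or more counts, 26 at 20 or more, 24 with 10 counts in every sample and 28 within the same group. For Doxo against NT, 6 members were called, with 3 at a natural log of the fold change over 1, 3 at over 2-fold and adjusted p under 0.01, 0 to 9 with 1 sample left out, and 12 without Doxo replicate 4 and Doxo+Cyta replicate 20 (chosen after seeing the data). For Doxo+Cyta against NT (2 called), DESeq2 gave 5, no filter on low counts 4, 10 counts in every sample 1, only the 2 groups compared 0, the natural log rule 1, the 2-fold rule 0, leaving out 1 sample 0 to 2, and both doubted samples out 7. For Doxo+Cyta+DAC against NT (17), the natural log rule gave 6, the 2-fold rule 8 and leaving out 1 sample 13 to 16. For Doxo against Doxo+Cyta+DAC (17) these were 5, 9 and 15 to 20, and for Doxo+Cyta against Doxo+Cyta+DAC (16) the natural log rule gave 4 and leaving out 1 sample 14 to 17. For Doxo against Doxo+Cyta (0), DESeq2 gave 1, leaving out 1 sample 0 to 1, and both doubted samples out 1. The fold rules by construction admit fewer genes, and leaving out an NT sample leaves a lone sample assumed to vary like the other groups. For the other settings the cause was not tested. Beside these counts no share of all genes is given here. Their moves are therefore not a result about the members. Of 1517 alternative values of single members none changed sign where either fit called it, 75 changed sign where neither did, 41 calls were lost and 39 gained. The small number of NT samples (2) and the low counts of members such as ABCA4 and ABCG2 limit the comparisons with NT.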
